A study of Homo sapiens with 62 samples.

Results

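The ERBB receptors and their EGF-family ligands were followed as 9 genes, found by gene name in the count table of every library. EGFR, ERBB2, ERBB3 and ERBB4 encode the 4 receptors, and AREG, EREG, TGFA, HBEGF and BTC encode 5 ligands (amphiregulin, epiregulin, transforming growth factor alpha, heparin-binding EGF-like growth factor and betacellulin). They were 9 of 58735 genes listed for 4 of the cell lines and 9 of 48162 genes listed for the fifth, A2780. EGFR lies on the short arm of chromosome 7 (7p), of which the extra copy was removed in some A2058 clones. The other members lie on chromosomes 2, 4, 5, 12 and 17, so none lies on an arm that was targeted elsewhere (1q or 8q).

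ERBB receptors are cell-surface tyrosine kinases that pair with one another when a ligand binds, and they signal through the RAS-ERK and PI3K pathways. ERBB2 has no known ligand of its own, and ERBB3 has little kinase activity and depends on its partner. The ligands are made as membrane proteins and are released by sheddases of the ADAM family. Amphiregulin and TGF-alpha bind EGFR, while epiregulin, HB-EGF and betacellulin also bind ERBB4. Ligand transcription is itself raised by RAS-ERK signalling in many epithelia, which makes this family a common readout of that pathway.

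The data were messenger RNA counts from 62 libraries of 5 human cell lines in 16 groups. Each line carries a gained chromosome arm, and single-cell clones from which the extra copy had been removed by ReDACT, a group of genome-engineering methods, were set against cells that keep it. A2058 (melanoma) had 4 WT libraries (parental cells) and clones labelled ReDACT-CO: 4 libraries of 1q-loss from 2 clones, 6 of 7p-loss from 3 clones and 4 of 8q-loss from 2 clones. HCT116 (colorectal cancer) had 2 WT libraries and 4 libraries of 8q-loss from 2 ReDACT-CO clones. AGS (gastric cancer) had 1 WT library, 2 TK+ libraries (an integrated TK cassette, gain kept) and 5 1q-loss libraries, 1 for each clone, of which clones 1, 4, 6 and 7 were made with ReDACT-NS and clone 11 with ReDACT-CO. A2780 (ovarian cancer) had 2 WT and 2 TK+ libraries and 6 libraries of 1q-loss from 3 ReDACT-NS clones. MCF10A (breast epithelial) had 2 WT libraries and 8 of 1q-loss from 4 clones, and the same numbers in cells expressing hRASV12, an activated HRAS called hRas below. Clones 1 to 3 were made there with ReDACT-TR and clone 4 with ReDACT-CO. The vector or promoter that drives hRASV12 was not given in the sources used here. All cells had grown for 24 hours after plating.

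Totals ran from 15042068 to 30984036 counts per library. The targeted arm was lower in every loss group, with a mean shift between -0.60 and -0.42 on the log2 scale against the rest of the genome. The labelled cell types were compared with their markers. Leukocyte markers summed to at most 1.23 CPM in any library, where CPM is a gene's count scaled to the library's total. The 6 melanocyte markers (SOX10, MITF, PMEL, MLANA, TYR and DCT) summed to between 2500 and 4430 CPM in A2058 WT, and all 4 libraries of A2058 1q-loss stood apart at 48.5 to 250 CPM. The sum was 1210 to 4550 CPM in 7p-loss and 2090 to 3930 CPM in 8q-loss. In these, MLANA had a mean of 2.57 and 2.25 CPM against 20.3 CPM in WT, and TYR in 8q-loss one of 4.47 against 123 CPM. TYR in 7p-loss spread from 0.0984 to 1040 CPM (mean 267 CPM), and PMEL in 8q-loss had a mean of 1480 against 1340 CPM in WT. In A2058 1q-loss the endothelial markers PECAM1 and CDH5 summed to 10.2 to 19 CPM, against 0.395 to 0.789 CPM in WT. A2780 had PAX8, WT1 and MUC16 at group means under 1 CPM, and its epithelial markers were uneven, so that the 6 ovarian carcinoma markers summed to 170 and 175 CPM in WT, 5.82 and 8.31 CPM in TK+, and 7.13 to 88.7 CPM in 1q-loss. Group means were under 1 CPM for VIL1 and LGALS4 in HCT116 and for CLDN18 in AGS. The 6 gastric markers of AGS summed to 5930 to 8140 CPM in 1q-loss, 3910 and 5250 CPM in TK+ and 4530 CPM in WT. KRT8 had a mean of 4290 CPM in 1q-loss against 2430 in TK+ and 2530 in WT, and EPCAM one of 717 against 786 and 708 CPM. Their part in the AGS values below was not tested. In MCF10A the 5 basal epithelial markers summed to 3700 CPM or more except in hRas 1q-loss clone 2 (612 and 639 CPM) and clone 4 (2440 and 2590 CPM). KRT5 carried most of this sum, with a mean of 4170 CPM in WT. KRT14 was at 65.6 and 74.9 CPM in WT. It ran from 3.76 to 125 CPM in 1q-loss and from 4.92 to 130 CPM in hRas 1q-loss.

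The 250 bases before the transcription start are shown for 3 ligand genes that moved together in A2058 and for EGFR, which was at 0 counts in the WT libraries of that line and abundant in MCF10A. They are from RefSeq (GRCh38.p14), read 5′ to 3′ on the gene's own strand, and 8 of the 9 members had an entry. Capitals mark matches, on either strand, to 4 motifs that were chosen after the sequences had been read. They were the cAMP-response element TGACGTCA and the TATA box TATAAA. The others were the GC box, spelled GGGCGG, and the AP-1 site. The latter reads TGANTCA. AREG is at chr4:74444886-74445135 (plus strand), EREG at chr4:74364895-74365144 (plus strand), HBEGF at chr5:140346604-140346853 (minus strand) and EGFR at chr7:55018767-55019016 (plus strand).
AREG: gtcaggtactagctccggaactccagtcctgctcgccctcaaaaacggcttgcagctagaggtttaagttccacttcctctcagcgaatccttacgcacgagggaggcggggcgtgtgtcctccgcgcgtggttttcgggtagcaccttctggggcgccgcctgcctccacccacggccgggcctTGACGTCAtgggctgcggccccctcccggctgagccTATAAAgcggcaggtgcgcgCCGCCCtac
EREG: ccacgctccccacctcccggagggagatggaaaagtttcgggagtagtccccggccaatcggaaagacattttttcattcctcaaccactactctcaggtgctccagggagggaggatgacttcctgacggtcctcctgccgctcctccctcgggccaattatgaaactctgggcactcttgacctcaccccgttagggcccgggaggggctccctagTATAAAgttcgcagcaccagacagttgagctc
HBEGF: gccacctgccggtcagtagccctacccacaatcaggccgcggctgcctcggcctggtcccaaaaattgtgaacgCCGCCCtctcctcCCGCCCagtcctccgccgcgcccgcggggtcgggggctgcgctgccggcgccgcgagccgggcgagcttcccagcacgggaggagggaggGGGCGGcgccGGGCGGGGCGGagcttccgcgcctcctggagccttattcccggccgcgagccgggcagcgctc
EGFR: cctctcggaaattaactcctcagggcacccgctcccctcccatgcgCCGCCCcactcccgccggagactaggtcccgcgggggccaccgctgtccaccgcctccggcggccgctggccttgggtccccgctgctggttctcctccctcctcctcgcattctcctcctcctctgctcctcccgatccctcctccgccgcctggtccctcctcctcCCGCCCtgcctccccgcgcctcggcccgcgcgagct
AREG had the only TGACGTCA among the members with an entry, at bases -65 to -58 from the start, a motif that 1.65% of 35116 RefSeq promoters hold in this window. TATAAA was found in AREG at -29 to -24 and in EREG at -32 to -27, and 10.7% of promoters hold it. GGGCGG occurred 5 times before HBEGF, where a pair of neighbouring matches share a base, 3 times before TGFA, 2 times before EGFR and 1 time each before AREG and ERBB4, and 42.6% of promoters hold it. TGANTCA was found before ERBB2, and 6.57% of promoters hold it. No other overlap between motifs was found. The HBEGF window had 76.4% G and C and that of EGFR 73.6%, against a median of 58% over all promoters, and EREG lay at 58%.

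Each line had its own receptor and ligand profile. Levels are compared here in the libraries that keep the gain and carry no hRas, as CPM for the order of lines and as CPM per kb of the gene length in the table where genes are compared. The tables of A2780 were counted on another gene model, so levels set against that line are less secure. EGFR was highest in MCF10A, at 471 ± 68 CPM (SD, n = 2), followed by AGS at 144 ± 17.9 CPM (SD, n = 3). HCT116 had 18.7 ± 2.86 CPM (SD, n = 2) and A2780 10 ± 9.89 CPM (SD, n = 4), and these ranges overlapped because the A2780 libraries disagreed with each other. A2058 had 0 EGFR counts in all 4 WT libraries. With 3 counts as the limit that a count of 0 allows, its EGFR mRNA was below detection at this depth. ERBB2 varied least, from 77 ± 3.9 CPM (SD, n = 4) in A2058 to 195 ± 29.6 CPM (SD, n = 3) in AGS, which overlapped A2780 at 193 ± 10.9 CPM (SD, n = 4). ERBB3 was highest in A2058, at 285 ± 47.6 CPM (SD, n = 4), and lowest in HCT116 and A2780, which overlapped at 10.1 to 12.2 and 9.82 to 12.9 CPM. ERBB4 was above 2 CPM in A2780 alone among these control libraries, at 57.2 ± 7.09 CPM (SD, n = 4), and HCT116 had 0 counts in all 6 of its libraries.

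Per kb, the leading receptor was ERBB3 in A2058 (80.7% of the summed receptor CPM per kb), EGFR in MCF10A (77.5%), and ERBB2 in HCT116 (81.7%), A2780 (83.7%) and AGS (48.2%). Among ligands AREG led in MCF10A (82.3% of the summed ligand CPM per kb) and HCT116 (69.1%), TGFA in A2058 (77.9%), and HBEGF in AGS (49.8%) and A2780 (88%). The total differed widely. The 5 ligands summed to 129 to 137 CPM per kb in the MCF10A WT libraries and to 1.05 to 1.07 in those of A2780 WT. TGFA was at 127 ± 23.8 CPM (SD, n = 4) in A2058 and at 0.136 ± 0.0701 CPM (SD, n = 4) in A2780. AREG was at 181 ± 7.56 CPM (SD, n = 2) in MCF10A and at most 1 count per library in the AGS controls. BTC was highest in AGS, at 17.3 ± 2.26 CPM (SD, n = 3), and its next 3 lines, HCT116, MCF10A and A2058, overlapped between 2.06 and 3.58 CPM. EREG was highest in HCT116, at 16.5 and 30.3 CPM, and had 0 counts in the AGS controls. These levels describe the lines and were not tested, since lines differ in much besides these genes.

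**Figure D1:**
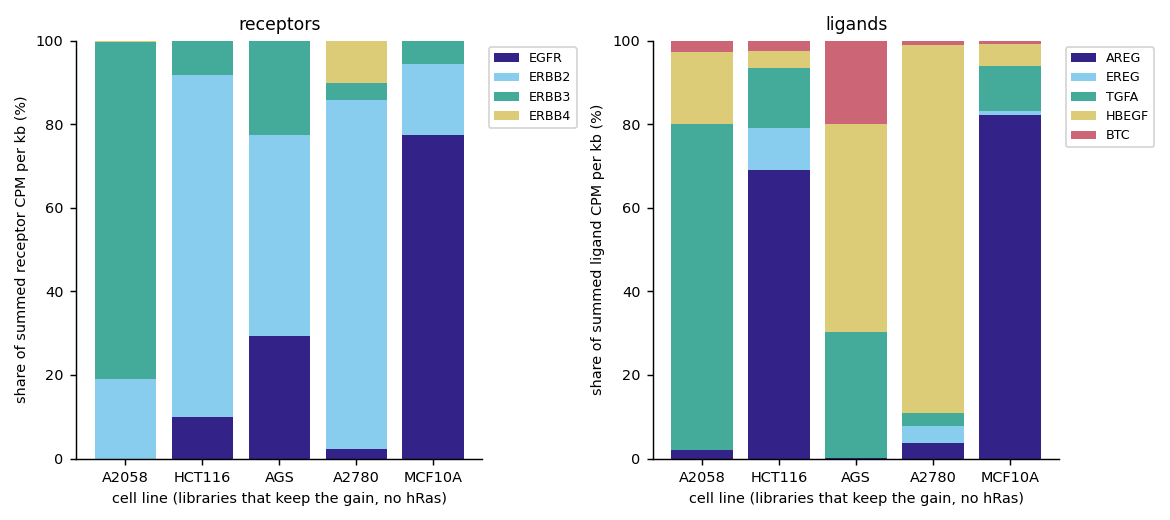
Share of the summed receptor (left) or ligand (right) CPM per kb held by each gene, in percent, as the mean over the control libraries of each line without hRas (A2058 n = 4, HCT116 n = 2, AGS n = 3, A2780 n = 4, MCF10A n = 2). ERBB3 and TGFA fill most of the A2058 bars, and EGFR and AREG those of MCF10A.

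**Figure D2:**
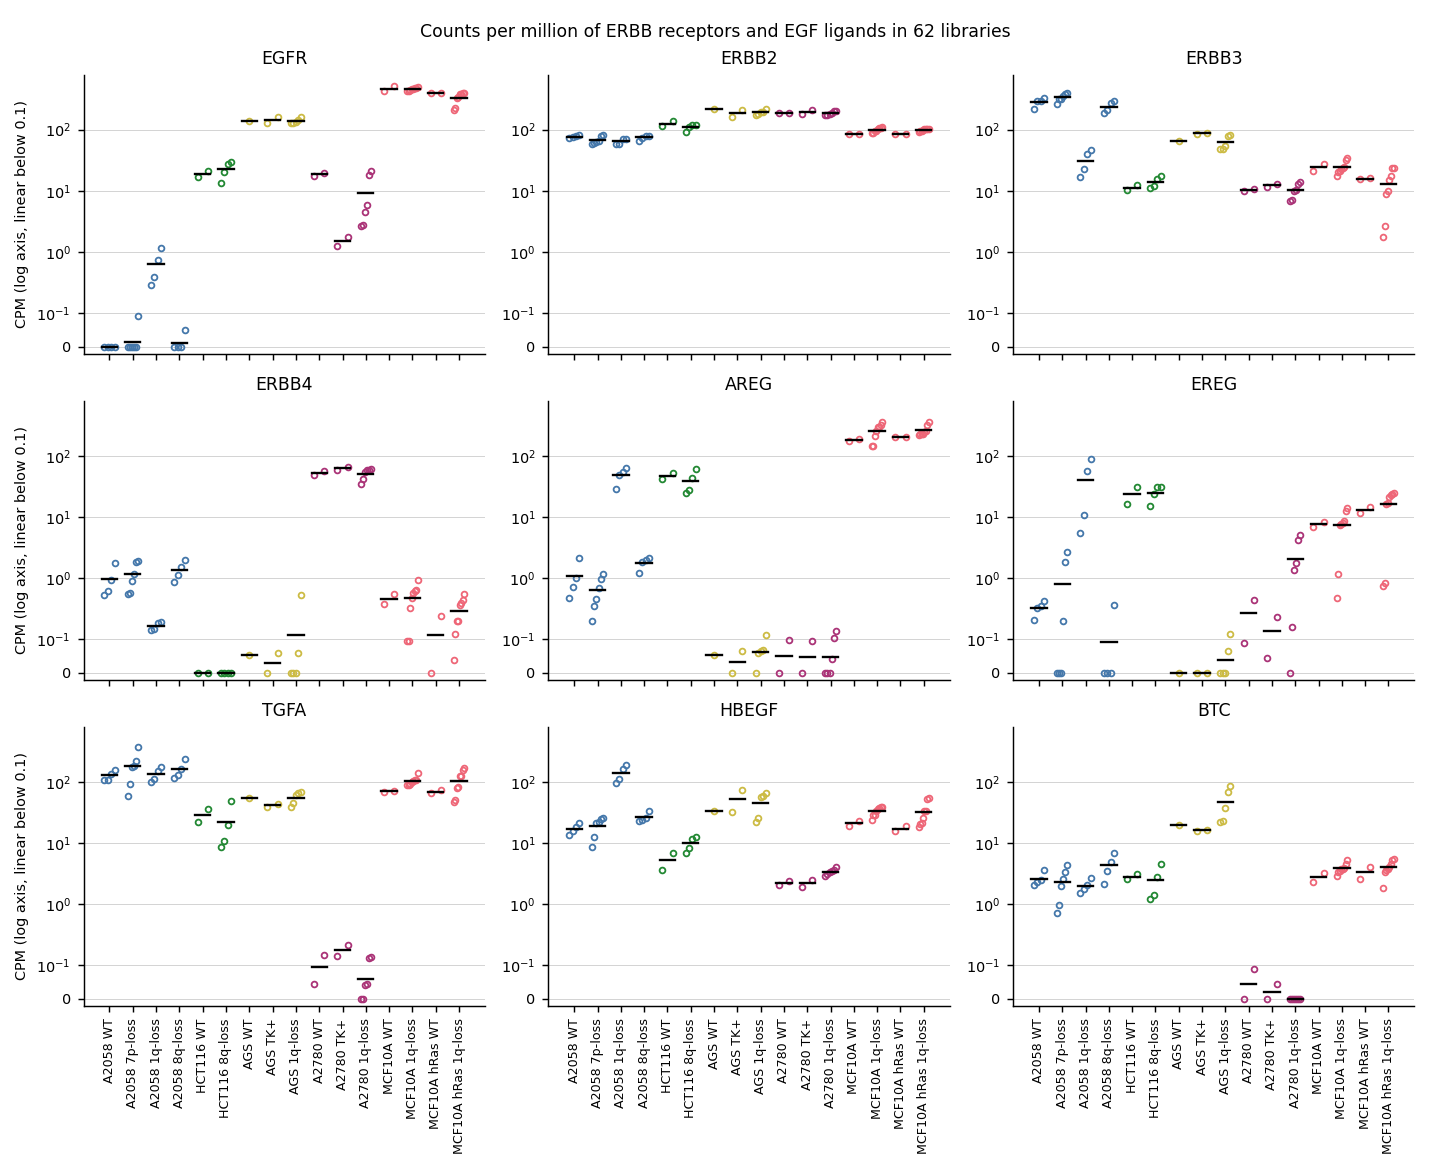
CPM of each gene in all 62 libraries by group, on a log axis that is linear below 0.1, with a point for each library and a bar at the group mean. In the A2058 groups, AREG, EREG and HBEGF are raised and ERBB3 is lowered in 1q-loss. In 7p-loss and 8q-loss, AREG, HBEGF and ERBB3 lie nearer to WT, and EREG is low, spreading from 0 to 2.66 CPM in 7p-loss.

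With loss of 7p in A2058, 2 of the 6 tested neighbours of EGFR fell (SEC61G and VOPP1). EGFR itself was at or near 0 counts with and without the extra copy of the arm. EGFR had 0 counts in 4 WT libraries and in 5 of 6 7p-loss libraries, and 2 counts in the remaining library (clone 3, replicate 2). No difference was detectable at this depth, and EGFR did not pass the filter on low counts. SEC61G, a subunit of the protein translocation channel 259 kb before EGFR, went from 82.9 ± 15.1 CPM (SD, n = 4) to 53.1 ± 5.28 CPM (SD, n = 6), which is -0.63 on the log2 scale (SE 0.117, adjusted p = 0.0347). VOPP1, 224 kb after EGFR, went from 98.5 ± 5.53 (SD, n = 4) to 64.6 ± 7.38 CPM (SD, n = 6), which is -0.59 on the log2 scale (SE 0.093, adjusted p = 0.0125). LANCL2, 154 kb after EGFR, had a log2 fold change of -0.55 (adjusted p = 0.118) and was lower in all 3 clones. The long non-coding RNA LINC01446 (-0.49, adjusted p = 0.577) and the pseudogenes HAUS6P3 (-0.05, adjusted p = 0.975) and FKBP9P1 (0.05, adjusted p = 0.946) did not pass either. Here and below, p-values are from edgeR's quasi-likelihood test with Benjamini-Hochberg adjustment over the whole table of a comparison. Genes with an adjusted p under 0.05 are referred to as called. With the replicate number as a block, 1 gene of the whole table was called in 7p-loss, so SEC61G and VOPP1 were not both called there. The labels name biological replicates for MCF10A alone. Elsewhere nothing says that libraries came from separate cultures, so these p-values measure the spread between these libraries, which may be technical.

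None of the 7 members tested in 7p-loss was called, beside 0.908% of all 15305 genes. ERBB3, the main receptor of this line, was at 218 to 332 CPM in WT and 265 to 406 CPM in 7p-loss (log2 fold change 0.28, SE 0.149, adjusted p = 0.451). ERBB2 was at 72.4 to 81 CPM in WT and 59.1 to 82.3 CPM in 7p-loss (log2 fold change -0.16, adjusted p = 0.516). TGFA spread from 58.9 to 369 CPM over the 6 loss libraries, with WT at 108 to 158 CPM inside that range (log2 fold change 0.53, SE 0.413, adjusted p = 0.614). EREG reached 1.84 and 2.66 CPM in clone 2, and was at 0 to 0.197 CPM in the other clones and 0.204 to 0.426 CPM in WT. No gene of the 5 pathway lists was called.

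With loss of 8q in the same line, against the same 4 WT libraries, none of the 7 tested members was called, beside 2.03% of 15141 genes. HBEGF was at 13.4, 15.7, 17.9 and 21.3 CPM in WT and at 23, 23.9, 25.9 and 33 CPM in 8q-loss. The groups did not overlap, and the log2 fold change was 0.63 (SE 0.163, adjusted p = 0.101), which DESeq2 called (0.0135). AREG had a mean of 1.77 ± 0.387 CPM against 1.08 ± 0.735 CPM (SD, n = 4 each; log2 fold change 0.69, SE 0.424, adjusted p = 0.532), and EREG, which failed the filter, had 0 to 8 counts against 4 to 10. BTC was at 2.06 to 3.58 CPM in WT and 2.14 to 6.76 CPM in 8q-loss (log2 fold change 0.73, SE 0.336, adjusted p = 0.395; without clone 2, 1.15 and 0.0426). In HCT116, loss of 8q gave no call among 8 tested members, beside 0.14% of 15659 genes. HBEGF was again above its controls in every library, at 6.93, 8.23, 11.7 and 12.3 CPM against 3.58 and 6.83 CPM (log2 fold change 0.94, SE 0.401, adjusted p = 0.859). AREG and TGFA went apart by clone. AREG was at 43.3 and 60.1 CPM in clone 1 and 27.2 and 24.4 CPM in clone 2, around WT at 41.7 and 51.3 CPM. TGFA was at 19.8 and 48.8 CPM in clone 1 and 8.66 and 10.7 CPM in clone 2, with WT at 22.1 and 35.7 CPM.

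Loss of 1q in A2058 was the comparison in which the family moved most. AREG, EREG and HBEGF rose, ERBB3 and ERBB4 fell, and ERBB2, TGFA and BTC did not pass the test. These were 5 of 8 tested members, beside 49.6% of all 15387 genes (25.3% higher and 24.3% lower), so the share is not far from the background, and what follows is about sizes. AREG was at 0.464, 0.714, 1.01 and 2.13 CPM in WT, at 29 and 53.4 CPM in clone 1 and at 47.8 and 64.1 CPM in clone 2. Both clones were far above every WT library, and the log2 fold change was 5.50 (SE 0.384, adjusted p = 1.58e-06). HBEGF was at 13.4 to 21.3 CPM in WT, at 96.8 and 186 CPM in clone 1 and at 110 and 160 CPM in clone 2 (log2 fold change 3.05, SE 0.224, adjusted p = 2.15e-06). EREG was at 0.204 to 0.426 CPM in WT, at 57.1 and 89.1 CPM in clone 1 and at 5.45 and 10.6 CPM in clone 2. The groups did not overlap, but clone 1 was several times above clone 2, which gave a log2 fold change of 6.94 with a wide SE of 1.044 (adjusted p = 0.000294). Fitted without clone 1 the change was 4.63 and without clone 2 it was 7.79.

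TGFA, the leading ligand of A2058 WT, was at 108 to 158 CPM in WT and at 101, 110, 151 and 176 CPM in 1q-loss (log2 fold change 0.12, SE 0.185, adjusted p = 0.62; without clone 1, 0.40 and 0.0449). BTC was at 2.06 to 3.58 CPM in WT and 1.54 to 2.66 CPM in 1q-loss (log2 fold change -0.34, adjusted p = 0.28). In CPM per kb the summed ligands went from 27.5 to 39 in WT to 80.8 to 133 in 1q-loss, and the leading ligand from TGFA to HBEGF, which held 41.6% of the sum. EREG, EPGN, AREG and BTC lie side by side within 486.2 kb of chromosome 4 (74308473 to 74794686, GRCh38). EPGN, which encodes the EGFR ligand epigen, had 0, 0, 2 and 5 counts in WT and 127, 150, 482 and 660 counts in 1q-loss, highest in clone 2 (log2 fold change 7.49, SE 0.789, adjusted p = 2.55e-05). Of this stretch, AREG, EREG and EPGN were called higher, beside 25.3% of all genes, and BTC, at its far end, was not called. EREG and EPGN, with at most 10 counts in any WT library, passed the filter on low counts only through their 1q-loss libraries. Whether the stretch acts as a unit was not tested.

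Among receptors, ERBB3 was at 218, 293, 295 and 332 CPM in WT, at 46 and 39.5 CPM in 1q-loss clone 1 and at 22.8 and 16.6 CPM in clone 2. No library overlapped, and the log2 fold change was -3.16 (SE 0.289, adjusted p = 9.44e-06). ERBB4 was low throughout, with 12 to 38 counts in WT and 3 or 4 counts in 1q-loss (log2 fold change -2.47, SE 0.477, adjusted p = 0.00153). ERBB2 was at 72.4 to 81 CPM in WT, at 58.5 and 57.9 CPM in clone 1 and at 70.8 and 71.4 CPM in clone 2 (log2 fold change -0.22, SE 0.088, adjusted p = 0.0641). No 1q-loss library reached WT, and ERBB2 was called without clone 2 (-0.38, adjusted p = 0.0048) and without either library of that clone (adjusted p = 0.043 and 0.0367). With ERBB3 down, ERBB2 became the leading receptor per kb, at 64.1% of the receptor sum. EGFR, at 0 counts in WT, had 6 and 8 counts in clone 1 and 25 and 20 counts in clone 2. Set against a limit of 3 counts per WT library, that is at least 4.6-fold higher, at a level of 0.284 to 1.14 CPM. EGFR did not pass the filter on low counts in the comparison of all libraries. With no filter it was called (adjusted p = 3.10e-05), as it was without clone 1 (0.000437). With WT replicates 1 and 2 or 3 and 4 alone it was called too (0.0115 and 0.011). With 0 counts in WT, EGFR entered these fits only through its 1q-loss counts, so these calls are no separate support.

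The melanocyte markers and the endothelial markers PECAM1 and CDH5 moved in the same 4 libraries, over the ranges given above. TYR was under 1 CPM in 1q-loss as a group mean, and the other 5 melanocyte markers stayed at 1 CPM or more. Their part in the changes of the ERBB genes was not tested. In bulk RNA, fewer cells of a type and less RNA per cell cannot be told apart. The 3 A2058 comparisons share their WT libraries.

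The counts of the pathway lists in A2058 1q-loss stand beside the same 49.6% of all genes called (25.3% higher and 24.3% lower). In these lists, 6 of 9 sheddases and iRhoms (proteins that carry ADAM17 to the cell surface) rose and none fell, with a median log2 fold change of 0.41 against -0.00057 over all genes. ADAM12 went from 4.94 ± 1.75 to 25.3 ± 8.46 CPM (SD, n = 4 each; log2 fold change 2.39, adjusted p = 7.87e-05), and ADAM8 from 4.41 ± 0.674 to 8.33 ± 3.83 CPM (0.96, adjusted p = 0.0185). Without clone 2, 3 genes of this list were called, and ADAM8 was lost there and without WT replicate 1. In the list of ERK-induced genes and feedback inhibitors, 8 of 14 rose and 2 fell, with a median of 0.62. DUSP5, a phosphatase that acts on ERK, went from 12.3 ± 2.9 to 53.8 ± 18.9 CPM (log2 fold change 2.16, adjusted p = 4.88e-05). IER3, an early response gene, went from 157 ± 25.3 to 576 ± 136 CPM (1.91, adjusted p = 9.58e-06). Receptor inhibitors and turnover genes had 6 of 11 higher and 1 lower, with LRIG1 at 1.28 (adjusted p = 0.000147) and the CBL partner SH3KBP1 at 1.14 (adjusted p = 5.06e-06). The adaptors had 2 of 10 higher and 2 lower, the latter being PIK3CB (-0.95, adjusted p = 1.41e-05) and PLCG1 (-0.66, adjusted p = 2.84e-05). Of other EGF-family ligands, 2 of 5 rose and 1 fell. NRG1, a ligand of ERBB3 and ERBB4, went from 30.3 ± 7.78 to 86.3 ± 16.1 CPM (1.54, adjusted p = 4.72e-05). SHC1 and ADAM15, the genes of these lists that lie on 1q, were not called here (0.07, adjusted p = 0.404, and -0.07, adjusted p = 0.416).

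**Figure D3:**
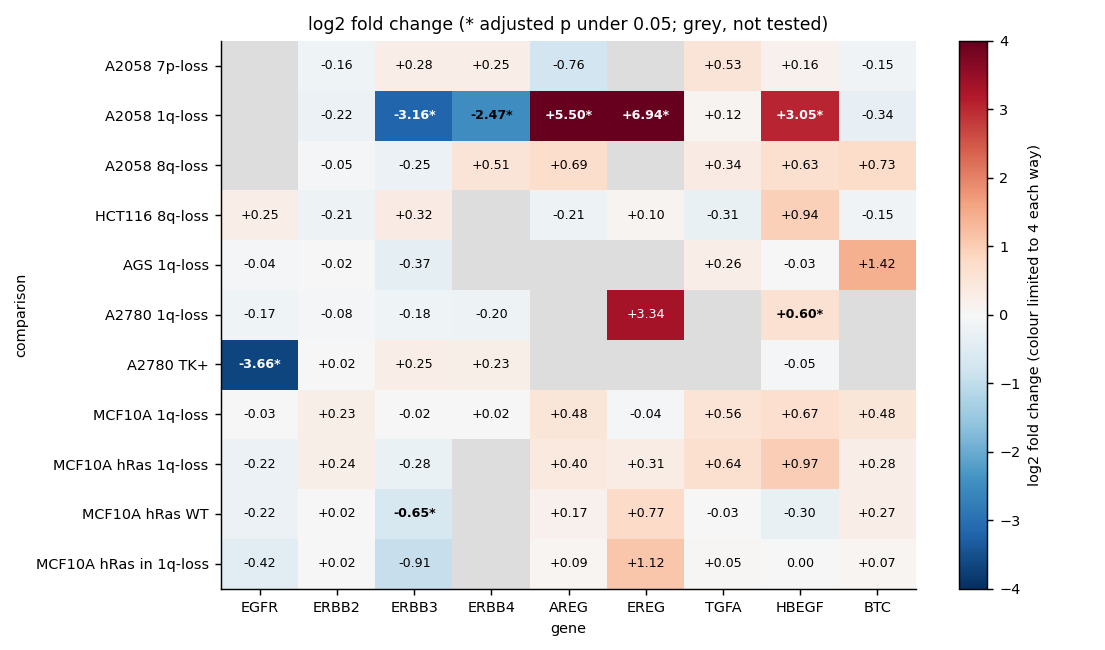
Log2 fold change of each gene (columns) in 11 comparisons (rows) by edgeR, with an asterisk at an adjusted p under 0.05 and grey where the gene failed the filter on low counts. The A2058 1q-loss row has 5 calls, and no other row has more than 1.

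In AGS, loss of 1q changed none of the 6 tested members by the test, beside 7.55% of 14988 genes. BTC was the member with the largest difference. It was at 19.9 CPM in WT, at 15.8 and 16.3 CPM in the TK+ clones, and at 68.8, 84.2, 22.5, 22.3 and 37 CPM in clones 1, 4, 6, 7 and 11. Every loss clone was above every control, clones 1 and 4 by the most and clones 6 and 7 by little. The log2 fold change was 1.42 (SE 0.450, adjusted p = 0.0859), and DESeq2 called it (0.00813). HBEGF ranged from 21.9 to 66.1 CPM in loss clones and from 32 to 73.1 CPM in controls (log2 fold change -0.03, SE 0.416, adjusted p = 0.973). Clones 6 and 7 had the lowest HBEGF as well as the lowest BTC and TGFA of the loss clones. ERBB3 was at 47.6, 54 and 49.1 CPM in clones 1, 4 and 11 and at 77.5 and 81.2 CPM in clones 6 and 7, with controls at 65.9 to 87.7 CPM (-0.37 as log2 fold change, SE 0.212, adjusted p = 0.303). EGFR at 129 to 159 CPM and ERBB2 at 173 to 217 CPM lay within or near the controls (adjusted p = 0.852 and 0.927). AREG, EREG and ERBB4 had 9 counts at most in any AGS library.

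Of 11 adaptors tested in AGS 1q-loss, 4 fell and none rose, beside 7.55% of all genes called. None of the 11 was called without the WT library or without TK+ clone 2, which left 167 and 97 calls among all genes in place of 1131. The other list genes named here were lost in those fits as well. Of the 8 fits that each left out 1 library, ADAM9 was lost in 2, SHC1 and CBLB in 3, LRIG3 in 4, and SOS1 and NRG1 in 5. SHC1, the adaptor that links ERBB receptors to GRB2 and SOS and a gene of 1q, went from 420 ± 28.9 CPM (SD, n = 3) to 221 ± 41.3 CPM (SD, n = 5), a log2 fold change of -0.93 (adjusted p = 0.0172). SOS1, the exchange factor that activates RAS, went from 83.6 ± 19.9 to 48.6 ± 9.01 CPM (-0.79, adjusted p = 0.034). ADAM15, also on 1q, had a log2 fold change of -0.62 (adjusted p = 0.0545), and the sheddase ADAM9 fell by 0.94 on the log2 scale (adjusted p = 0.0187). CBLB, a ubiquitin ligase of receptor turnover, and LRIG3 fell too (-0.83, adjusted p = 0.022, and -0.74, adjusted p = 0.0291). NRG1 had 1, 1 and 4 counts in controls and 8 to 249 counts in loss clones, most in clone 4 (log2 fold change 5.32, SE 1.329, adjusted p = 0.0425). No gene of the ERK list was called.

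In A2780, EGFR split the libraries that keep the gain. WT had 17.5 and 19.6 CPM, and TK+ had 1.24 and 1.72 CPM. The log2 fold change of TK+ against WT was -3.66 (SE 0.184, adjusted p = 4.53e-08), the only call among 5 tested members, beside 11.2% of 14888 genes. ERBB4 was at 48.2 and 56.8 CPM in WT and at 58.3 and 65.5 CPM in TK+ (0.23, adjusted p = 0.18), and passed the threshold without TK+ replicate 1 (0.28, adjusted p = 0.00406). That fit leaves 1 TK+ library, assumed to vary like WT, and it called 3278 genes against 1669 with all libraries. EGFR in the 1q-loss clones differed by clone. Clone 2 was at 18.1 and 21.3 CPM, overlapping WT. Clone 5 at 5.74 and 4.45 CPM and clone 6 at 2.65 and 2.75 CPM lay between TK+ and WT. Against WT and TK+ together the log2 fold change of 1q-loss was -0.17 (SE 0.840, adjusted p = 0.925). It was -1.07 against WT alone (adjusted p = 0.434) and 2.60 against TK+ alone (adjusted p = 0.182), so its direction was set by the controls used. The ovarian carcinoma marker sum was at 83.8 and 88.7 CPM in clone 2, 15.1 and 13 CPM in clone 5, and 7.13 and 10.8 CPM in clone 6, beside the WT and TK+ sums given above. Its part in the EGFR values was not tested. In TK+ against WT, CBLB went from 22.8 ± 0.111 to 1.29 ± 0.798 CPM (SD, n = 2 each; log2 fold change -4.17, adjusted p = 1.86e-07). The feedback inhibitor of EGFR, ERRFI1, went from 30.6 ± 1.29 to 12.4 ± 0.274 CPM (-1.32, adjusted p = 5.97e-06).

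HBEGF was the only one of 6 tested members called in A2780 1q-loss, beside 11.8% of 15044 genes. It was at 1.88, 2.01, 2.41 and 2.46 CPM in controls and at 2.88 to 4.01 CPM in the 6 loss libraries. The groups did not overlap, at 41 to 91 counts per library, and the log2 fold change was 0.60 (SE 0.159, adjusted p = 0.0331). The call was lost without any 1 of the 4 control libraries, without replicate 1 of clone 2, 5 or 6, without clone 2 or clone 6, and with WT or TK+ controls alone. In these fits the change stayed between 0.54 and 0.66 and the adjusted p between 0.0558 and 0.158. EREG was at 0.0428 to 0.442 CPM in controls, at 4.11 and 5.02 CPM in clone 5, at 1.74 and 1.34 CPM in clone 6, and at 0 and 0.155 CPM in clone 2 (log2 fold change 3.34, SE 1.174, adjusted p = 0.0906). Clone 2 overlapped the controls, and without it the change was 3.90 (adjusted p = 0.00565), or 3.60 (adjusted p = 0.0358) without its replicate 1 alone. The receptors ERBB2, ERBB3 and ERBB4 had log2 fold changes of -0.08, -0.18 and -0.20 (adjusted p = 0.436 to 0.629). AREG, TGFA and BTC had 5 counts at most in any A2780 library. The A2780 tables also list AREGB, a near-identical copy of AREG, which makes the AREG counts uncertain there.

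In the same comparison 8 of 13 genes of the ERK list rose and none fell, beside 11.8% of all genes called (4 of 13 without either WT library), with a median log2 fold change of 0.39 against 0.01 over all genes. FOSL1, a transcription factor of the AP-1 family, went from 2.05 ± 0.736 CPM (SD, n = 4) to 15.3 ± 2.06 CPM (SD, n = 6), a log2 fold change of 2.87 (adjusted p = 7.42e-05). EGR1, an immediate early gene, went from 20.4 ± 2.74 to 55.9 ± 11.3 CPM (1.43, adjusted p = 0.000306). Among sheddases, ADAM9 rose (0.42, adjusted p = 0.00176) and ADAM15 fell (-0.51, adjusted p = 0.00779). SHC1 was not called (-0.07, adjusted p = 0.795). PIK3CA was higher (0.38, adjusted p = 0.0298) and SOS1 lower (-0.23, adjusted p = 0.0421), and both calls were lost without either WT library.

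**Figure D4:**
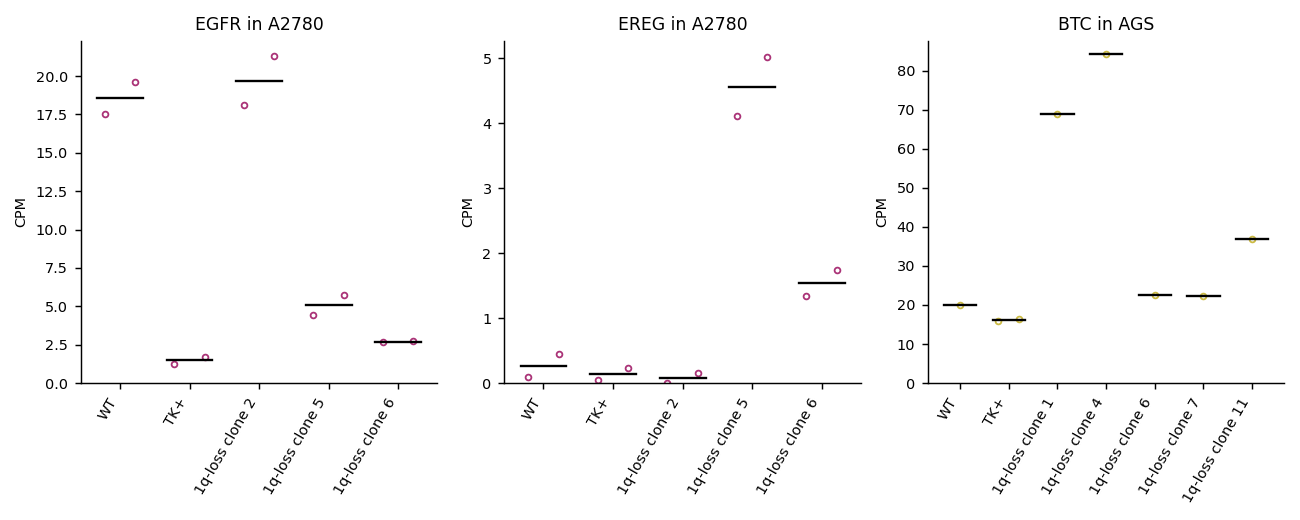
CPM of EGFR and EREG in A2780 and of BTC in AGS, with a circle for each library and a black bar at the mean of each control group or clone. EGFR is near 20 CPM in A2780 WT and clone 2 and at 5.74 CPM or less elsewhere, EREG is high in clones 5 and 6, and BTC is highest in AGS clones 1 and 4.

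In MCF10A, loss of 1q was accompanied by higher HBEGF and TGFA in every clone, short of the threshold. None of 9 tested members was called, beside 2.04% of 15666 genes. HBEGF was at 18.8 and 23.1 CPM in WT and in the 8 libraries of 1q-loss had a lowest value of 23.6, a median of 34.7 and a highest value of 39 CPM, so that all lay above WT. The log2 fold change was 0.67 (SE 0.179, adjusted p = 0.0906). TGFA was at 69.2 and 72.1 CPM in WT and in 1q-loss had a lowest value of 90.2, a median of 103 and a highest value of 141 CPM (0.56, SE 0.157, adjusted p = 0.108). DESeq2 called both (0.00923 and 0.0155), and the fit with the libraries of each clone summed called both (0.0352 and 0.0308). Without clone 4 both were called (0.0239 and 0.0133), as was HBEGF without its replicate 1 (0.0206) and TGFA without its replicate 2 (0.0235). Other fits that left out a library or clone called neither, and WT has only 2 libraries. Over all such fits the change was 0.52 to 0.82 for HBEGF and 0.48 to 0.61 for TGFA. ERBB2 was at 84.2 and 84.7 CPM in WT and at 86.6 to 112 CPM in 1q-loss (0.23, SE 0.109, adjusted p = 0.435). AREG was at 142 and 144 CPM in clone 1, below WT at 175 and 186 CPM, and at 213 to 351 CPM in the other clones (0.48, SE 0.306, adjusted p = 0.587). EGFR at 423 to 491 CPM overlapped WT at 423 and 519 CPM (-0.03, adjusted p = 0.936). EREG was at 6.86 and 8.38 CPM in WT and at 7.26 to 14 CPM in clones 1 to 3, but at 0.463 and 1.17 CPM in clone 4. No gene of the 5 pathway lists was called. ADAM15 had a log2 fold change of -0.34 (adjusted p = 0.0884) and SHC1 of -0.11 (adjusted p = 0.857).

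With hRas in both arms, loss of 1q again gave no call among 8 tested members, beside 0.214% of 15851 genes. TGFA was at 69.1 ± 5.3 CPM in hRas WT (SD, n = 2) and 104 ± 46.1 CPM in hRas 1q-loss (SD, n = 8), with clone 2 below hRas WT at 47.4 and 50.3 CPM (0.64, SE 0.471, adjusted p = 0.523). AREG was at 203 CPM in both hRas WT libraries and at 221 to 362 CPM in the 8 hRas 1q-loss libraries (log2 fold change 0.40, SE 0.174, adjusted p = 0.338). HBEGF was at 15.5 and 18.6 CPM in hRas WT and at 18.2 to 55.4 CPM in hRas 1q-loss, highest in clone 1 (0.97, SE 0.438, adjusted p = 0.349). ERBB2 was at 84.1 and 86.5 CPM and at 91.5 to 104 CPM (0.24, SE 0.079, adjusted p = 0.254). ERBB3 had a log2 fold change of -0.28 (adjusted p = 0.873) that was 0.07 without clone 2, the clone with few basal markers. SHC1 and ADAM15 were not called (0.28, adjusted p = 0.678, and -0.16, adjusted p = 0.719).

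The hRas construct was visible in its own gene. HRAS was at 86.8 and 88.6 CPM in WT and at 176 and 178 CPM in hRas WT (log2 fold change 1.01, SE 0.073, adjusted p = 1.63e-05). In 1q-loss clones it was at 76.2 to 101 CPM without hRas and at 156 to 408 CPM with it (1.44, SE 0.199, adjusted p = 0.00231), with clone 2 highest at 364 and 408 CPM. These counts do not separate the mutant from the endogenous transcript.

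With hRas in cells that keep the gain, ERBB3 fell, and EREG was higher but short of the threshold. ERBB3 was at 27.9 and 21.4 CPM in WT and at 16 and 15.6 CPM in hRas WT (log2 fold change -0.65, SE 0.147, adjusted p = 0.0473). It was the only call among 8 tested members, beside 1.62% of 14646 genes, and was lost on leaving out any of the 4 libraries (adjusted p = 0.114 to 0.341, changes of -0.82 to -0.44). These fits leave 1 library in an arm, assumed to vary like the other arm. EREG was at 6.86 and 8.38 CPM in WT and at 11.6 and 14.3 CPM in hRas WT (0.77, SE 0.183, adjusted p = 0.0609; DESeq2 0.0435). EGFR was at 423 and 519 CPM in WT and at 401 and 404 CPM in hRas WT (-0.22, SE 0.093, adjusted p = 0.291). AREG was at 175 and 186 CPM in WT and at 203 CPM in both hRas WT libraries (0.17, SE 0.072, adjusted p = 0.298). HBEGF was lower, at 15.5 and 18.6 CPM against 18.8 and 23.1 CPM (-0.30, adjusted p = 0.405), TGFA differed by -0.03 (adjusted p = 0.925), ERBB2 by 0.02 and BTC by 0.27 (adjusted p = 0.954 and 0.775). Of the ERK list, 5 of 14 genes rose and none fell, with SPRY4, a feedback inhibitor of RAS-ERK signalling, at 0.65 (adjusted p = 0.00171) and DUSP5 at 0.50 (adjusted p = 0.0242). Without either WT library no gene of the list, nor any gene at all, was called by edgeR, HRAS included (2118 and 1645 genes had an unadjusted p under 0.05 without WT replicates 1 and 2), and without an hRas WT library at most 2 of the list were.

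In the 1q-loss clones hRas was compared over 8 libraries on each side. Clones with the same number deviated together, so a fit with the clone and the replicate number as blocks is given beside the fit without blocks. A fit with the clone alone as block, added after the data were seen, called the same 3 members and 15.1% of genes. Values without a clone are from the fit without blocks. EGFR was at 423 to 491 CPM without hRas and at 214 to 404 CPM with it, and the groups did not overlap. Between the mean CPM of the same clone with and without hRas, the log2 difference was -0.26 in clone 1, -1.10 in clone 2, -0.34 in clone 3 and -0.31 in clone 4. All were negative, and clone 2 was lowest, at 224 and 214 CPM. The log2 fold change was -0.42 (SE 0.127, adjusted p = 0.0952; DESeq2 0.0347) and with the clone and replicate blocks -0.46 (SE 0.10, adjusted p = 0.0113). Without clone 2 it was -0.25 (adjusted p = 0.332). ERBB3 was at 17.7 to 33.8 CPM without hRas, and with hRas at 23.4 and 23.5 CPM in clone 1, 1.77 and 2.66 CPM in clone 2, 15 and 17.3 CPM in clone 3, and 8.69 and 9.77 CPM in clone 4. The log2 fold change was -0.91 (SE 0.395, adjusted p = 0.232) and with both blocks -1.20 (SE 0.337, adjusted p = 0.0319). The within-clone differences were -0.29, -3.33, -0.44 and -1.42 in clones 1 to 4, largest in clone 2. Without clone 2 the change was -0.60 (adjusted p = 0.49).

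EREG was the only ligand called in the fit with clone and replicate blocks. It was at 7.26 to 14 CPM in clones 1 to 3 without hRas and at 16.2 to 25 CPM with hRas, and in clone 4 at 0.463 and 1.17 CPM without and 0.737 and 0.814 CPM with hRas. Within clones 1 to 3 the log2 differences were 1.12, 1.47 and 0.85, and in clone 4 the difference was -0.07. The log2 fold change was 1.12 (SE 0.649, adjusted p = 0.372) and with both blocks 1.04 (SE 0.160, adjusted p = 0.00255). In the fit without blocks it was 1.14 without clone 4 (adjusted p = 0.0342). The fit with both blocks called 13.8% of 14332 genes, of which EGFR, ERBB3 and EREG were members, and the fit without blocks called 1.2% and no member of 8 tested. AREG (0.09, adjusted p = 0.837), TGFA (0.05, adjusted p = 0.941), BTC (0.07, adjusted p = 0.865) and HBEGF (-0.00087, adjusted p = 0.999) were not called by either fit, nor was ERBB2 (0.02, adjusted p = 0.868). The within-clone differences of TGFA had both signs (0.62, -1.03, -0.24 and 0.11), as had those of HBEGF (0.58, -0.81, -0.55 and 0.17). TGFA in hRas clones ran from 47.4 and 50.3 CPM in clone 2 to 167 and 159 CPM in clone 1. Of the ERK list 4 of 14 rose in the fit without blocks, with SPRY4 from 53.7 ± 5.19 to 126 ± 58.6 CPM (SD, n = 8 each; 1.29, adjusted p = 0.0254) and DUSP5 from 29.6 ± 5.12 to 51.3 ± 7.57 CPM (0.84, adjusted p = 0.00626). ERRFI1 rose from 94.3 ± 16.1 to 154 ± 36.4 CPM (0.75, adjusted p = 0.0328), and RNF41, a ubiquitin ligase that acts on ERBB3, from 40.9 ± 2.75 to 47.2 ± 2.65 CPM (0.25, adjusted p = 0.0443). Without clone 2 no gene of either list was called, and of the 20 fits that left out 1 library or clone, SPRY4 was lost in 12, DUSP5 in 1, ERRFI1 in 13 and RNF41 in 15. The basal marker sums of clone 2 with hRas, 612 and 639 CPM, stand beside its low ERBB3, EGFR and TGFA. Those of clone 4 with hRas, 2440 and 2590 CPM, stand beside an ERBB3 difference of -1.42. Their part was not tested.

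The difference between hRas effects with and without the 1q gain was tested as an interaction. None of the 9 members was called, nor was any of 16492 genes (0%). By edgeR 366 genes had an unadjusted p under 0.05, none of them a member, and DESeq2 called 1 gene. These fits do not pair same-numbered clones. With the clone as a block, added after the data were seen, 1 gene and no member was called, and 1278 genes had an unadjusted p under 0.05. The largest member estimate was that of ERBB4, at 1.26 with an SE of 1.260, from counts of 0 to 17 per library. It was 5.68 without hRas WT replicate 1 and 0.29 without hRas WT replicate 2. EREG had an interaction of 0.35 (SE 1.346) and EGFR of -0.20 (SE 0.271).

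**Figure D5:**
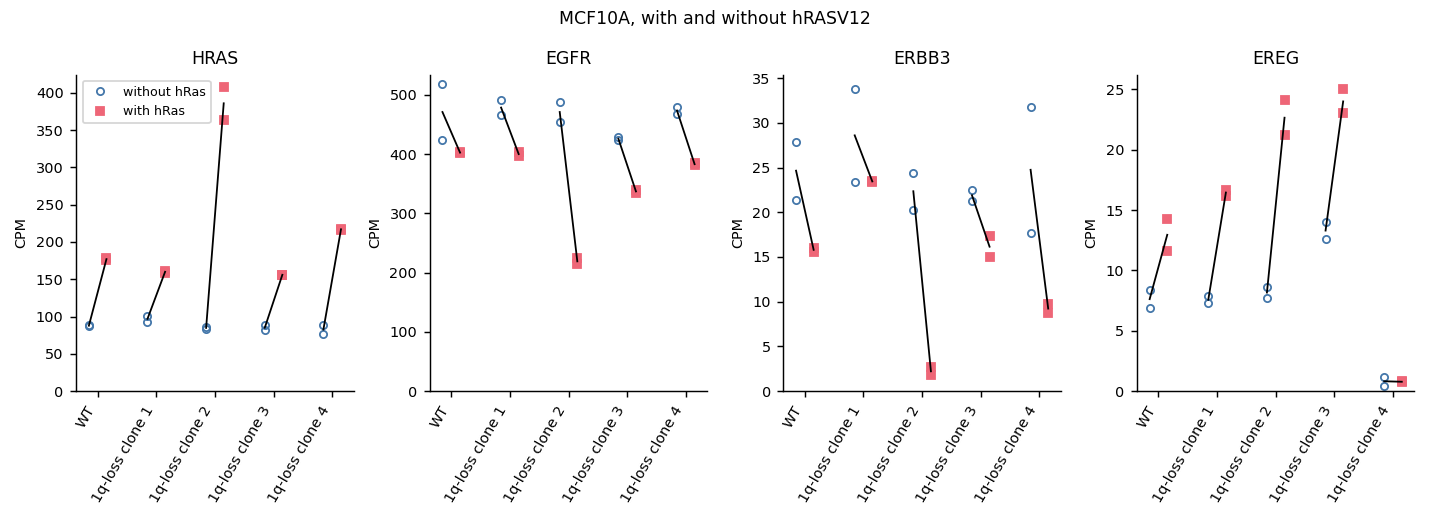
CPM of HRAS, EGFR, ERBB3 and EREG in MCF10A WT and in each 1q-loss clone, without hRas (open circles) and with hRas (filled squares), 2 libraries each, with a line between the means. EGFR and ERBB3 are lowest in clone 2 with hRas, where HRAS is highest, and EREG is near 1 CPM or below in clone 4 with and without hRas.

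Over the 20 MCF10A libraries the members were set beside the 11801 protein-coding genes with a mean of at least 1 CPM, by Pearson's r of log2 CPM. The libraries share clones and hRas status, so r describes them and has no test. Among the genes most like ERBB3 were CGN (0.985) and ESRP2 (0.980), which encode the tight junction protein cingulin and an epithelial splicing factor. EGFR was most like IGF1R (0.964), CNN2 (0.958) and AFDN (0.953). HBEGF was most like another member, TGFA (0.899), then EHD4 (0.877) and ATP13A2 (0.870), while TGFA was most like WNT9A (0.937), SH3PXD2A (0.920) and ALOXE3 (0.912). Among those most like EREG were WLS (0.927) and GLOD4 (0.922). For ERBB2 they were MELTF (0.911), NADSYN1 (0.907) and ACAA1 (0.896), for AREG ACADS (0.817), POLH (0.761) and LPXN (0.738), and for BTC INPP1 (0.759), WDPCP (0.735) and MINOS1 (0.728). Among members themselves EGFR and ERBB3 had an r of 0.88, and the neighbouring genes AREG and EREG one of -0.04.

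Gene overlaps limit some values. EGFR overlaps the antisense gene EGFR-AS1, ERBB2 overlaps MIEN1 and PGAP3 on the other strand, and whether the counting used the strand was not given in the sources used here, so reads of such pairs cannot be told apart. On its own strand TGFA overlaps the intronic transcript TGFA-IT1 in both gene models. ERBB3 overlaps PA2G4 in the A2780 gene model and the protein-coding gene AC034102.2 in that of the other lines, also on its own strand, which makes the counts of ERBB3 uncertain.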

How the data were processed

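RNA of 62 libraries was sequenced after poly-T bead capture, per the labels' protocols. The authors deposited raw read counts per gene. HISAT2 2.0.5 and featureCounts 1.5.0-p3 are named in the submitters' processing notes. The deposited count tables of A2780 carry GRCh37 coordinates and the others GRCh38, although those notes name hg38. CPM were computed by scaling each count to its library's total, and divided by gene length to compare genes. Totals of 15042068 to 30984036 limit precision for low genes.

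Differences were tested with edgeR 4.0.16 (quasi-likelihood test, TMM, filterByExpr with a minimum count of 10 and total of 15), fitted on the groups compared, over all genes, with Benjamini-Hochberg adjustment. DESeq2 1.42.0, DESeq2's size factors, no filter, summed clones, other controls, replicate blocks and left-out libraries were alternatives. Same-numbered MCF10A clones were paired, since their deviations from the group means correlated in 4 of 4 pairs (r = 0.29 to 0.67). Named genes were the members, HRAS, up to 2 called genes of each list with the largest change and a mean of at least 1 CPM, SHC1 and ADAM15 in 1q loss, 3 tested genes on each side of EGFR, and the 3 genes most alike, of which some are not reported here. No replicate pair was identical. Members and lists were chosen with earlier results of these data known.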

Additional observations from a re-analysis of the deposited data

Results flagged for a closer look

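TGFA was at 141 CPM in MCF10A 1q-loss clone 4 replicate 2, apart from the other 7 libraries of its group. It was the only such value in 62 sets of 4 to 10 libraries examined, and chance sets apart about 1 in 20.

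ERBB2 differed in sign between lines with loss of 1q. Its log2 fold change was -0.22 in A2058, where all 4 libraries were below WT, and 0.23 in MCF10A, where all 8 were above WT. With hRas in both arms of the MCF10A comparison it was 0.24, again in 8 of 8 libraries. None of these was called, and the difference between lines was not tested. The A2058 libraries come from 2 clones and those of each MCF10A comparison from 4. Same-numbered MCF10A clones with and without hRas deviated together, so these library counts are not independent.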

How the results depend on the processing

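The 5 calls in A2058 1q-loss and that of EGFR in A2780 TK+ held in every alternative run. The number of members called changed in several comparisons. In A2058 1q-loss it was 5 to 7 on leaving out 1 library or clone, and 6 with no filter or with either pair of WT libraries, where the sixth was EGFR. With DESeq2 it was 1 in A2058 8q-loss, 1 in AGS, 2 in A2780 1q-loss, 2 in MCF10A 1q-loss, 2 for hRas in WT and 1 for hRas in 1q-loss. With no filter it was 1, 1, 0, 2 and 2 in the first 5 of these. Summed clones gave 0 in A2780 1q-loss and 2 in MCF10A 1q-loss, and WT or TK+ controls alone gave 0 in A2780. Leaving out 1 library or clone gave 0 to 1 in A2058 8q-loss, A2780 1q-loss and hRas in 1q-loss, 1 to 2 in A2780 TK+, 0 to 2 in MCF10A 1q-loss and 0 for hRas in WT. Pairing by replicate number was mixed. Deviations of same-numbered replicates correlated above 0.1 in 3 of 6 pairs in A2058 7p-loss and 6 of 10 in A2780 1q-loss. The 1 pair of A2780 TK+ had an r of 0.15, and in MCF10A hRas 1q-loss 0 of 10 pairs were above 0.1. The replicate number was a block in alternative fits only. The replicate block gave 1 call in MCF10A 1q-loss and 2 for hRas in WT, and with the clone as a further block 3 for hRas in 1q-loss. The clone block, added after the data were seen, gave 3 there and 0 in the interaction.

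Directions that reversed belonged to members that were not called. With the replicate block, BTC was 0.12 in A2058 7p-loss, ERBB2 0.01 in 8q-loss, ERBB4 -0.04 in MCF10A 1q-loss and HBEGF 0.01 for hRas in 1q-loss, where TGFA was -0.08 with the clone added and -0.09 with the clone block. The TGFA interaction was -0.06 with that block. With WT replicates 1 and 2 alone BTC was 0.11 (7p) and ERBB2 0.01 (8q), and with 3 and 4 alone HBEGF was -0.04 and ERBB4 -0.23 (7p). TK+ controls alone gave ERBB2 0.09 in AGS and EGFR 2.60 in A2780. HBEGF was 0.00078 by DESeq2 for hRas in 1q-loss, and the ERBB2 interaction was -0.0025 by DESeq2, -0.0027 with its size factors and -0.00046 with summed clones.

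Leaving out 1 library or clone gave these ranges. In A2058, TGFA was -0.24 to 0.40 in 1q-loss, BTC -0.72 to 0.24 and HBEGF -0.09 to 0.43 in 7p-loss, and ERBB2 -0.08 to 0.0029 in 8q-loss. In A2780, EGFR was -1.39 to 0.36 and ERBB3 -0.43 to 0.03 in 1q-loss, and ERBB2 -0.04 to 0.09 and HBEGF -0.22 to 0.11 in TK+. In AGS, EGFR was -0.12 to 0.03, ERBB2 -0.14 to 0.09 and HBEGF -0.25 to 0.47. In HCT116, AREG was -0.96 to 0.28, BTC -0.65 to 0.21, EGFR -0.02 to 0.48, ERBB2 -0.47 to 0.13, EREG -0.16 to 0.42 and TGFA -1.67 to 0.38. In MCF10A 1q-loss, EGFR was -0.17 to 0.13, ERBB3 -0.20 to 0.18, ERBB4 -0.34 to 0.30 and EREG -0.47 to 0.33, and with hRas ERBB3 was -0.74 to 0.07. For hRas in WT, BTC was -0.07 to 0.56 and TGFA -0.12 to 0.06. For hRas in 1q-loss, AREG was -0.05 to 0.23, BTC -0.11 to 0.19, ERBB2 -0.0048 to 0.06, HBEGF -0.31 to 0.19 and TGFA -0.23 to 0.26. Interactions were -0.23 to 0.05 for AREG, -0.49 to 0.14 for BTC, -0.03 to 0.04 for ERBB2, -0.66 to 0.05 for ERBB3, -0.03 to 0.49 for HBEGF, -0.22 to 0.29 for TGFA and 0.29 to 5.68 for ERBB4. Where 1 library was left in an arm, it was assumed to vary like the other groups.

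Genes called over the whole table also varied. In A2058 7p-loss 139 became 525 by DESeq2, 55 with summed clones, 1 with the replicate block, 16 and 47 with WT replicates 1 and 2 or 3 and 4, and 71 to 898 on leaving out. In 8q-loss 308 became 684, 487 with no filter, 39 with the block, 79 and 16 with those WT pairs, and 119 to 783. HCT116 had 22, 117 by DESeq2, 133 with no filter, 8 with the block and 0 to 117 on leaving out. AGS had 1131, 2232 by DESeq2, 167 with TK+ alone and 97 to 1773. A2780 1q-loss had 1780, 725 with summed clones, 667 with TK+ alone and 983 to 1800, and TK+ had 1669 and 1094 to 3278. MCF10A 1q-loss had 319, 567 by DESeq2 and 16 to 452, and with hRas 34, 496 by DESeq2, 13 with no filter, 0 summed, 2 with the block and 0 to 60. For hRas in WT 237 became 633 with no filter, 711 with the block and 0 to 173 on leaving out. For hRas in 1q-loss 172 became 806 by DESeq2, 112 with no filter, 0 summed, 74 with the replicate block alone, 1978 with the clone added, 2160 with the clone block and 9 to 504. The interaction gave 0, and 1 by DESeq2 or with the clone block. Depth limits EGFR in A2058, ERBB4 outside A2780, and the ligands in A2780.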
